A study of Gallus gallus with 4 samples.

Results

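The nuclear proteins outside the replication and repair core are the 83 genes, measured by 87 probes, that the study's table of 902 annotated genes places in the nucleus and types as enzyme or other. The 33 genes of that class for origin licensing, the MCM helicase, the clamp loader, histone deposition, the NDC80 complex, the G cyclins and a few further proteins were left out. Immortal DF-1 cells, a fibroblast line that arose spontaneously from embryos of a chicken line free of endogenous virus, were compared with primary chicken embryo fibroblasts (CEF), which were prepared by dissociating whole 10 day old embryos of specific-pathogen free stock and used at an early passage. Both were grown untreated in the same medium, and RNA of both was hybridized together on each of 4 two-color arrays, with primary CEF in Cy3 and DF-1 in Cy5. The primary cells did not come from the embryos that gave rise to DF-1. The DF-1 cells were also at a far later passage and, per the study, grew faster. Line of origin, time in culture, growth rate and immortal growth therefore cannot be told apart. The same holds for the dye and the cell type, since no array had the dyes exchanged. The labels name the arrays biological replicates, but the record's design text speaks of 1 sample per cell type, so the SD over 4 arrays may reflect the assay alone.

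Many of these proteins act on RNA, on chromatin or in the upkeep of DNA. Ribosomal RNA is made, cut and packed with proteins in the nucleolus, messenger RNA is spliced and given its end by large particles of RNA and protein, and histones are loaded, modified and passed on at each round of DNA synthesis. Cells that divide fast are known to need many new ribosomes and histones. Whether growth rate had a part in the members' values was not tested. The class also takes in proteins of the centromere and spindle, of ubiquitin transfer and of the nuclear pore, and some that the annotation places in the nucleus although they are best known from the cytosol, the mitochondrion or the extracellular matrix.

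Values are given as log2 ratios, with DF-1 over primary CEF, so that 1 is a 2 fold higher and -1 a 2 fold lower signal in DF-1 cells, and each error is an SD over the 4 arrays. A probe was called higher or lower where the mean passed 1 or -1 and the unadjusted p of limma, a moderated test of the mean against 0, was under 0.05. The study drew its table from this same contrast, so the size and direction of the members' values were used in choosing them and are given as a description, with no test. Of the 87 probes, 58 were called higher, against a background of 6.12% of the 42034 gene probes, and 24 were called lower, against 6.06%. By gene, 55 were higher, 23 lower and 5 short of 2 fold. The study's list required a change over 2 fold, so the study had called these 5 as well, and their shortfall holds for the deposited ratios. The log ratios that the study printed for HELLS, KIF11, TIPIN, DTX2 and MAB21L1 lie below the deposited means. All 87 probes had the same sign on all 4 arrays, and on 56 of them, or 64.4%, every single array was past 2 fold in that direction. Of the study's whole table, chosen on the same contrast, 99.3% and 67.8% of probes met these conditions, and of all gene probes 49.9% and 7.63%. The means ran from -6.34 to 2.69, with a median of 1.43 over the 58 positive probes and of -1.23 over the 29 negative ones. The wider reach of the values was thus on the lower side, where MAB21L1, MUSTN1 and CRYAB stood apart from the rest. In such bulk cultures, fewer cells of a type and less RNA per cell cannot be told apart. By the choice of the genes there was a gap between the signs, and no probe had a mean between -0.85 and 1.14. Of 22 enzymes, 17 were higher and 4 were lower, and of the 65 probes typed as other, 41 were higher and 20 were lower.

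**Figure D1:**
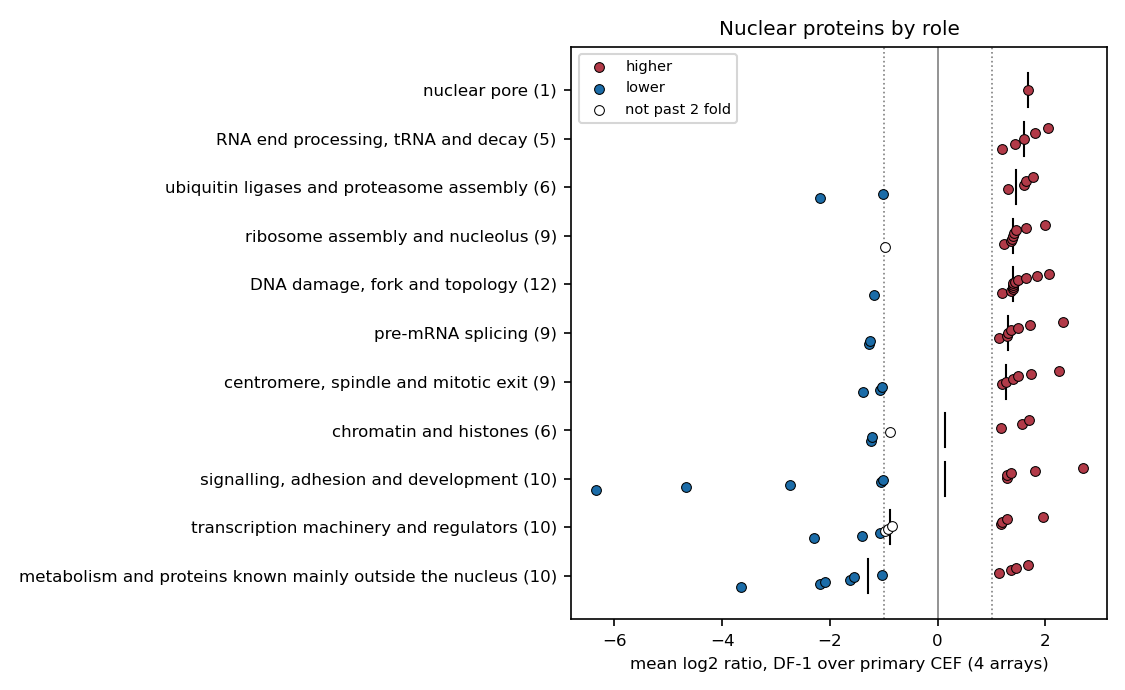
Mean log2 ratio of DF-1 over primary CEF for the 87 probes, 1 point per probe, grouped by role with the number of probes in brackets and a bar at each group's median; dotted lines mark 1 and -1. All 5 probes of RNA end processing lie above 1, while the metabolic group and the developmental group hold the points farthest to the left.

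The arrays did not sit at the same level. The median of all gene probes was -0.04, 0.20, 0.21 and 0.47 on arrays 1 to 4, and that of the negative control spots was 0.02, 0.17, 0.38 and 0.53. Across the 42034 gene probes, which are not independent replicates, Pearson's correlation was 0.929 between arrays 1 and 3 and 0.893 between arrays 2 and 4, and 0.813 to 0.861 between the other pairs. The members' order over the arrays followed the same pairs: the highest of the 4 values was on array 2 or 4 in 31 and 43 of the 87 probes, and the lowest on array 1 or 3 in 37 and 34. Over all gene probes, array 2 held the highest value in 18.4% and array 3 the lowest in 20.3%, compared with 35.6% and 39.1% of the members. Array 4 held the highest in 58.5% and array 1 the lowest in 54.6% of all gene probes, compared with 49.4% and 42.5% of the members. What the pairs of arrays share is not given in the labels, and its part in the members' values was not tested. Centering the arrays, so that the gene probe median of each was 0, lowered every mean by 0.21, with 50 probes then higher and 29 lower. The sign of all 87 probes stayed as it was, which was fixed beforehand, since no mean lay between -0.85 and 1.14. Of the members' calls, 70.7% were higher as deposited and 63.3% after the shift. Of the calls over all gene probes these shares were 50.2% and 34.9%.

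**Figure D2:**
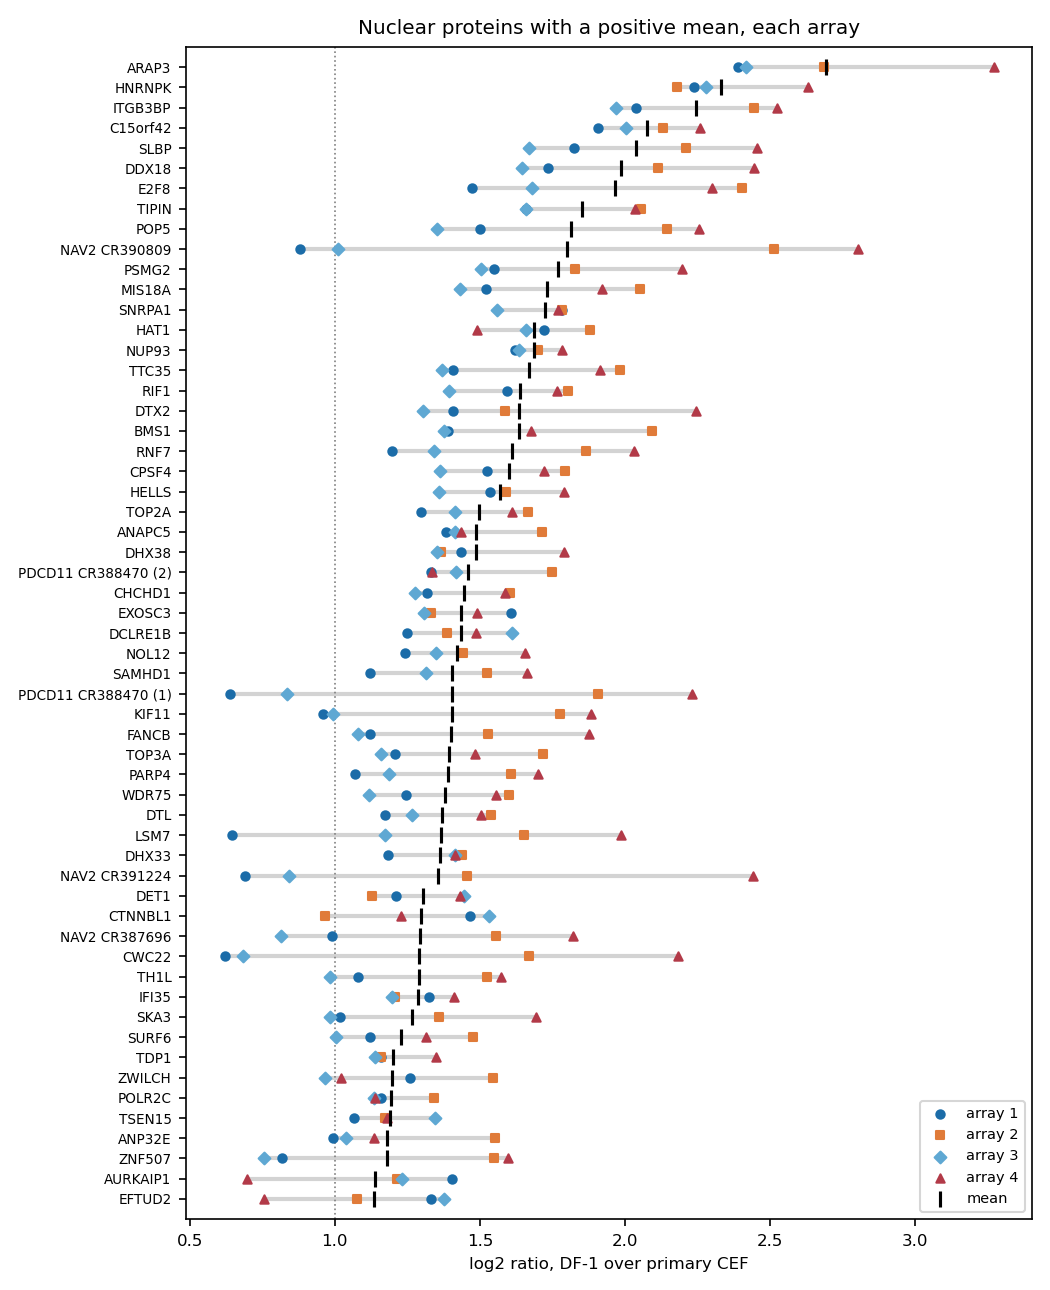
Log2 ratio on each of the 4 arrays for the 58 probes with a positive mean except 1 that is not reported here, sorted by the mean (black bar); the grey line joins the lowest and the highest array and the dotted line marks 1. ARAP3 is at the top with values from 2.39 to 3.27, and for CWC22 and the NAV2 and first PDCD11 probes the squares and triangles of arrays 2 and 4 lie far to the right of arrays 1 and 3.

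Nucleolar proteins of ribosome assembly were higher in DF-1 cells in 7 of 8 genes, with a median of 1.40 over 9 probes. DDX18, a DEAD box RNA helicase of the nucleolus, had log2 ratios of 1.73, 2.11, 1.65 and 2.44 on arrays 1 to 4 and a mean of 1.98 ± 0.37. BMS1, a GTPase of the particle that first assembles the small ribosomal subunit, had 1.39, 2.09, 1.38 and 1.68, with a mean of 1.63 ± 0.34. Both were thus past 2 fold on every array. WDR75, which belongs to the same early particle, had a mean of 1.38 ± 0.24, NOL12, an RNA-binding protein of the nucleolus, had 1.42 ± 0.18, and DHX33, a DEAH box helicase, had 1.36 ± 0.12. SURF6, a nucleolar matrix protein, was the lowest of the higher genes at 1.12, 1.48, 1.00 and 1.31, with a mean of 1.23 ± 0.21. These 4 means differed by less than the SD of WDR75 or SURF6 alone. SBDS, which helps to release the factor that keeps the ribosomal subunits apart, ran the other way with -1.43, -0.64, -1.44 and -0.41 and a mean of -0.98 ± 0.53. It was past 2 fold on arrays 1 and 3 and short of it on arrays 2 and 4, and its mean was just short of the threshold.

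PDCD11, the homologue of a yeast protein that joins the processing of both ribosomal subunits, was measured by 2 probes of the same accession. The first had 0.64, 1.91, 0.84 and 2.23, with a mean of 1.40 ± 0.78, and the second had 1.33, 1.75, 1.42 and 1.33, with a mean of 1.46 ± 0.20. Their means were alike, yet the first probe was higher on arrays 2 and 4 than on arrays 1 and 3 and the second had its highest value on array 2 alone. Of 87 further genes in a list of ribosome assembly, 3 could be named on the arrays and all 3 were higher: RRP7A at 1.66 ± 0.23, TBL3 at 1.37 ± 0.13 and NOC2L at 1.27 ± 0.13. Nearly all genes with a symbol come from the study's table of changed genes. That a named gene was changed was thus largely fixed beforehand. Of the 902 probes of that table, 404 were called higher and 400 lower. Over all gene probes 6.12% were called higher. The same holds for the further lists below, so their counts are no support for the members.

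Of the 9 proteins of pre-mRNA splicing, 7 were higher and 2 were lower. HNRNPK, which binds stretches of cytosine in RNA and also acts in transcription, had 2.24, 2.18, 2.28 and 2.63 and the highest mean of the group, 2.33 ± 0.20. SNRPA1, a protein of the U2 particle that recognizes the branch site, had 1.78, 1.78, 1.56 and 1.77, with a mean of 1.72 ± 0.11. The spread of SNRPA1 over the arrays was among the narrowest of all members. DHX38, the helicase that remodels the spliceosome for its second step, had a mean of 1.48 ± 0.21, and CTNNBL1, which is bound to the PRP19 complex of the spliceosome, had 1.30 ± 0.26. EFTUD2, the GTPase of the U5 particle, had 1.33, 1.08, 1.38 and 0.76, with a mean of 1.14 ± 0.29, the lowest positive mean of the class, and it was short of 2 fold on array 4 alone. LSM7, a subunit of the ring that holds U6 RNA, had 0.64, 1.65, 1.17 and 1.99, with a mean of 1.36 ± 0.58. CWC22, which places the exon junction complex on spliced RNA, had 0.62, 1.67, 0.68 and 2.18, with a mean of 1.29 ± 0.77. LSM7 was short of 2 fold on array 1 alone. For CWC22 the distance between arrays 1 and 4 was larger than the mean itself, it was past 2 fold on arrays 2 and 4 alone, and its mean was 0.99 without array 4.

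Both lower splicing proteins are regulators of exon choice. Sfrs5, a serine- and arginine-rich splicing factor, had -1.86, -0.80, -1.78 and -0.66, with a mean of -1.28 ± 0.63. KHDRBS3, an RNA-binding protein of the STAR family known from the brain and testis of mammals, had -1.48, -0.76, -1.97 and -0.77, with a mean of -1.25 ± 0.59. In both the values of arrays 1 and 3 were past 2 fold and those of arrays 2 and 4 were not. Of 81 further listed spliceosome genes, 1 could be named, BUD31, which came from the table of changed genes and was higher at 1.74 ± 0.10.

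All 5 proteins of RNA end processing, transfer RNA splicing and RNA decay were higher, with a median of 1.60, and each was past 2 fold on every array. SLBP binds the stem-loop at the end of histone messenger RNA and is made for the phase of DNA synthesis. It had 1.82, 2.21, 1.67 and 2.45, with a mean of 2.04 ± 0.36. POP5, a subunit of the ribonucleases that trim transfer RNA and ribosomal RNA precursors, had 1.50, 2.15, 1.35 and 2.26, with a mean of 1.81 ± 0.45. In SLBP and POP5 arrays 2 and 4 were higher than arrays 1 and 3. CPSF4, of the complex that recognizes the polyadenylation signal, had a mean of 1.60 ± 0.19. EXOSC3, a subunit of the RNA exosome, had 1.61, 1.33, 1.31 and 1.49, with a mean of 1.43 ± 0.14, and here array 1 was the highest. TSEN15, of the endonuclease that cuts introns from transfer RNA, had 1.06, 1.17, 1.34 and 1.18, with a mean of 1.19 ± 0.12. EXOSC10, a nuclease of the exosome, was named by its RefSeq accession and is not in the study's table of annotated genes. It had 0.64 ± 0.09 and did not pass the 2 fold threshold.

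The nuclear pore was represented by NUP93, a protein of its inner ring, with 1.62, 1.70, 1.64 and 1.78 and a mean of 1.68 ± 0.07. Its SD was the lowest of all 87 probes. Of 26 further listed pore genes, 2 could be named, both from the table of changed genes. Both were higher, NUP35, which sits in the inner ring as well, at 1.62 ± 0.21 and NUP160, of the outer ring, at 1.20 ± 0.19.

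Proteins of DNA damage, fork protection and DNA topology were higher in 11 of 12 genes, and each of the 12 probes was past 2 fold on every array. C15orf42 is now called TICRR and encodes treslin, which is needed to fire replication origins. It had 1.91, 2.13, 2.00 and 2.26, with a mean of 2.07 ± 0.15. TIPIN, which with its partner TIMELESS stabilizes stalled forks, had 1.66, 2.06, 1.66 and 2.03, with a mean of 1.85 ± 0.22. RIF1, which controls the timing of origins and the choice of break repair, had a mean of 1.64 ± 0.19. The first of these genes exceeded the others of the group by more than its own SD. TOP2A, the topoisomerase that untangles sister chromatids, had 1.50 ± 0.17 and TOP3A, which acts with the BLM helicase, had 1.39 ± 0.26. DCLRE1B, a nuclease of telomeres and crosslink repair, had 1.43 ± 0.15, and FANCB, of the Fanconi anemia core complex, had 1.40 ± 0.38. SAMHD1, which breaks down deoxynucleotides, had 1.40 ± 0.24, DTL, which marks the licensing factor CDT1 for destruction, had 1.37 ± 0.18, and PARP4, a poly(ADP-ribose) polymerase of the vault particle, had 1.39 ± 0.31. These 7 genes lay between 1.37 and 1.50, closer together than the arrays of any of them.

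TDP1, which frees topoisomerase I from DNA ends, was the lowest of the higher genes at 1.16, 1.16, 1.14 and 1.35, with a mean of 1.20 ± 0.10. TDG was the exception in direction. This glycosylase removes thymine and oxidized methylcytosine from DNA, and it had -1.25, -1.03, -1.21 and -1.23, with a mean of -1.18 ± 0.10, so that all arrays were past 2 fold on the lower side with little spread. Of 53 further listed genes of this field, BRCA1 and its partner BARD1 could be named, both from the table of changed genes. BRCA1 had 1.38, 2.46, 1.21 and 2.49 on arrays 1 to 4, which is the same order over the arrays as in SLBP and POP5, while BARD1 stayed between 2.05 and 2.27.

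Proteins of the centromere, the spindle and mitotic exit were higher in 6 of 8 genes. ITGB3BP, also known as CENP-R of the inner kinetochore, had 2.04, 2.44, 1.97 and 2.52, with a mean of 2.24 ± 0.28. MIS18A, which prepares centromeres for new CENP-A, had 1.52, 2.05, 1.43 and 1.92, with a mean of 1.73 ± 0.30. Both were past 2 fold on every array. ANAPC5, of the anaphase promoting complex, had a mean of 1.49 ± 0.15, and KIF11, the motor that pushes spindle poles apart, had 1.40 ± 0.49. SKA3, of the complex that tracks microtubule ends at the kinetochore, had 1.26 ± 0.33, and ZWILCH, of the complex that recruits dynein and checkpoint proteins there, had 1.20 ± 0.26. KIF11, SKA3 and ZWILCH were each just short of 2 fold on array 3, at 0.99, 0.98 and 0.97, and KIF11 also on array 1, at 0.96. Of 64 further listed genes, CENPL, CENPM, KIF23 and PLK1 could be named, all from the table of changed genes. All 4 were higher, from 1.22 for PLK1 to 1.56 for CENPL, a partner of ITGB3BP in the inner kinetochore.

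The lower genes of this group were NDEL1 and TACC2. NDEL1, which regulates dynein at centrosomes and kinetochores, had -1.30, -1.32, -1.40 and -1.54, with a mean of -1.39 ± 0.11. TACC2, a centrosomal coiled-coil protein, was measured by 2 probes. That of accession CR524009 had -1.56, -0.62, -1.37 and -0.71, with a mean of -1.07 ± 0.47, and that of CR353598 had -1.38, -0.72, -1.38 and -0.64, with a mean of -1.03 ± 0.40. The probes shared 0 words of 10 bases and yet gave nearly the same value on every array, past 2 fold on arrays 1 and 3 and short of it on arrays 2 and 4. Leaving out array 1 or array 3 took both means to between -0.96 and -0.90, short of 2 fold.
TACC2 (CR524009): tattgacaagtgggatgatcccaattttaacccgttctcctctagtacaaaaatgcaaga
This 60 base probe is printed 5′ to 3′, like the others in the text, as the study's probe list gives it, and is shown because a second probe of other sequence gave the same pattern. It has 2 of 3 forward reading frames without a stop codon, but an open frame of this length does not show that a probe lies in coding sequence. The probe list used here held 23 of the 87 member probes, all with negative means.

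**Figure D3:**
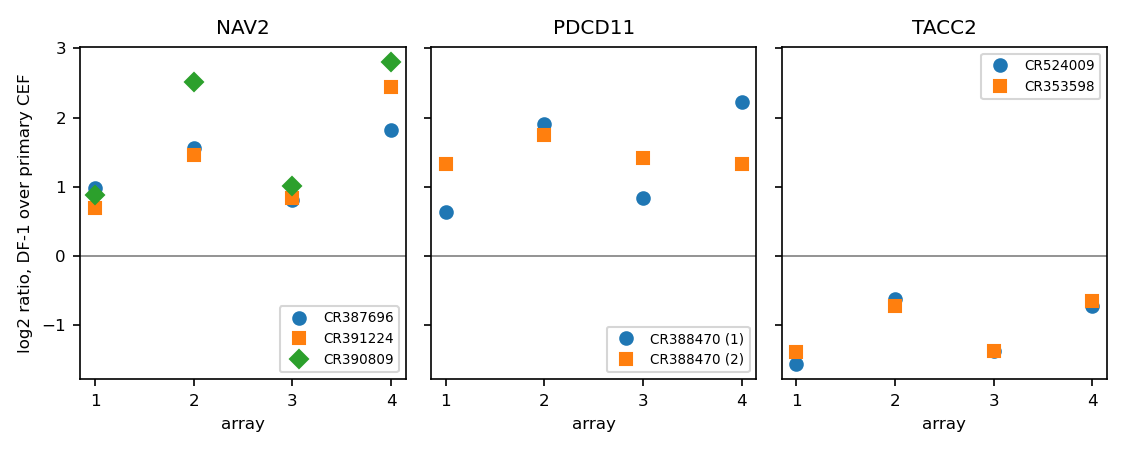
Log2 ratio on each array for the 3 genes with more than 1 probe, 1 marker shape per probe. The 3 NAV2 probes and the 2 TACC2 probes move in parallel over the arrays, and the 2 PDCD11 probes part on arrays 1, 3 and 4.

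Chromatin and histone proteins were divided, with 3 higher, 2 lower and 1 that did not pass. HAT1, which acetylates newly made histone H4, had 1.72, 1.88, 1.66 and 1.49, with a mean of 1.69 ± 0.16. HELLS, a remodeler needed for DNA methylation, had 1.54, 1.59, 1.36 and 1.79, with a mean of 1.57 ± 0.18, and ANP32E, a chaperone that removes the histone variant H2A.Z, had a mean of 1.18 ± 0.26. All arrays were past 2 fold for HAT1 and HELLS. The 3 genes with negative means belong to enzymes that modify histones in chromatin. SUV420H1, a methyltransferase of histone H4, had -1.98, -0.86, -1.63 and -0.47, with a mean of -1.23 ± 0.69. MEAF6, a subunit shared by several acetyltransferase complexes, had -1.41, -1.11, -1.39 and -0.99, with a mean of -1.23 ± 0.21. SIRT6, a deacetylase of histone H3 with a role in genome stability, had -0.95, -0.94, -0.92 and -0.76, with a mean of -0.89 ± 0.09. SIRT6 was short of 2 fold on all 4 arrays, whereas SUV420H1 was the widest of the group, past 2 fold on arrays 1 and 3 alone, and had a mean of -0.99 without array 1.
SUV420H1: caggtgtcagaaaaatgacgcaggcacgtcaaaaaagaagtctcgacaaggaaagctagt
The SUV420H1 probe is shown because its value was the least even of the lower genes, with an SD of 0.69. No other gene of the 55 further in the chromatin list could be named.

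Of the 10 proteins of transcription, 4 were higher, 3 lower and 3 had negative means short of 2 fold. E2F8, an atypical E2F that represses targets of E2F1 late in DNA synthesis, had 1.47, 2.40, 1.68 and 2.30, with a mean of 1.96 ± 0.46. TH1L, now called NELFCD, a subunit of the complex that holds RNA polymerase II at its pause, had 1.08, 1.52, 0.98 and 1.57, with a mean of 1.29 ± 0.30. POLR2C, a subunit of that polymerase, had a mean of 1.19 ± 0.10, and ZNF507, a zinc finger protein, had 1.18 ± 0.45. E2F8 had the highest mean of these, although its array 1 overlapped arrays 2 and 4 of TH1L and ZNF507. MED17, from the table of changed genes, was the 1 further gene that could be named in a list of RNA polymerase II, NELF and Mediator. It was higher at 1.87 ± 0.31.

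On the lower side, OLIG3, a basic helix-loop-helix factor of the dorsal neural tube, had -2.22, -2.50, -1.83 and -2.65, with a mean of -2.30 ± 0.36. PYGO1, a co-activator of beta-catenin in Wnt signaling, had -1.22, -1.28, -1.39 and -1.76, with a mean of -1.41 ± 0.24, and PNRC1, a co-activator of nuclear receptors, had a mean of -1.07 ± 0.15. OLIG3 was past 2 fold on every array by a wide margin. ZBTB1, a zinc finger repressor, had -1.21, -0.57, -1.32 and -0.81, with a mean of -0.98 ± 0.35, just short of the threshold. CREB3L2, a membrane-bound factor that supports secretion of collagen in cartilage, had a mean of -0.92 ± 0.12. SRFBP1, which binds serum response factor, had -1.34, -0.65, -1.19 and -0.23, with a mean of -0.85 ± 0.51. Its value on array 4 was the nearest to 0 among all values of the members.

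Among 6 proteins of ubiquitin transfer and proteasome assembly, 4 were higher and 2 were lower. PSMG2, a chaperone of proteasome assembly, had 1.55, 1.83, 1.50 and 2.20, with a mean of 1.77 ± 0.32. DTX2, a ubiquitin ligase of the Notch pathway, had 1.41, 1.59, 1.30 and 2.25, with a mean of 1.64 ± 0.42, RNF7, the RING subunit of cullin ligases, had a mean of 1.61 ± 0.40, and DET1, an adaptor of a cullin ligase, had 1.30 ± 0.16. Among these genes DET1 was the only one without its highest value on array 4. NEURL, now called NEURL1 and homologous to a Drosophila ligase of Notch ligands, had -2.03, -2.31, -2.12 and -2.31, with a mean of -2.19 ± 0.14, far below KLHL7, a cullin adaptor, which had -1.43, -0.76, -1.12 and -0.73 and a mean of -1.01 ± 0.33.

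The largest differences of the class were in proteins of signaling, adhesion and development. MAB21L1, a gene of eye and craniofacial development, had -6.42, -6.22, -6.53 and -6.20, with a mean of -6.34 ± 0.16, the 16th lowest of all 42034 gene probes. MUSTN1, a small nuclear protein of the musculoskeletal system that is expressed during bone and muscle growth and regeneration, had -5.43, -4.24, -4.90 and -4.13, with a mean of -4.68 ± 0.61. RGS2, which speeds the inactivation of G proteins, had -2.95, -2.59, -2.81 and -2.61, with a mean of -2.74 ± 0.17. In each of these 3 genes all arrays were past -2, and the arrays of 1 gene did not overlap those of the next. CDK2AP1, which binds CDK2 and restrains the cell cycle, had -1.34, -0.91, -1.40 and -0.57, with a mean of -1.05 ± 0.39. NEDD9, a scaffold of focal adhesions, had -1.24, -0.75, -0.66 and -1.39, with a mean of -1.01 ± 0.36, the nearest to the threshold among the lower genes.

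ARAP3, which switches off small GTPases at the cell edge, had 2.39, 2.69, 2.42 and 3.27, with a mean of 2.69 ± 0.41, the highest of all members. IFI35, an interferon-induced protein, had 1.32, 1.21, 1.20 and 1.41, with a mean of 1.29 ± 0.10. NAV2, a protein that guides the growth of axons, was measured by 3 probes. That of accession CR390809 had 0.88, 2.51, 1.01 and 2.80, that of CR391224 had 0.69, 1.45, 0.84 and 2.44 and that of CR387696 had 0.99, 1.56, 0.81 and 1.82, with means of 1.80 ± 1.00, 1.36 ± 0.79 and 1.29 ± 0.47. On all 3 probes arrays 2 and 4 were higher than arrays 1 and 3. This order was common to the probes, but the SD was not equally wide, and it was smallest on the probe of CR387696. The probe of CR391224 was at 1.00 without array 4 and was then not called.

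The last group holds 10 proteins that are known mainly from outside the nucleus, of which 6 were lower and 4 were higher. CRYAB, the small heat shock protein alpha B-crystallin that is abundant in lens and striated muscle, had -3.25, -4.29, -2.99 and -4.06, with a mean of -3.65 ± 0.62. In contrast to MUSTN1, its lowest values were on arrays 2 and 4. CCDC80, a secreted protein of the extracellular matrix, had -2.27, -2.33, -2.21 and -1.94, with a mean of -2.19 ± 0.18. RGN, the calcium-binding lactonase regucalcin, had -2.03, -1.98, -2.30 and -2.06, with a mean of -2.09 ± 0.14. ADI1, an enzyme of methionine salvage, had -1.62 ± 0.08, and UGDH, which makes the sugar nucleotide for hyaluronan and other glycosaminoglycans, had -1.56 ± 0.14. TMEM57, an endoplasmic reticulum protein also called macoilin, had -1.04 ± 0.15. CCDC80, RGN, ADI1 and UGDH were past 2 fold on every array, and TMEM57 was short of it on array 2.
RGN: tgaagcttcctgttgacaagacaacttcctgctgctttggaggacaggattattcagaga
CRYAB: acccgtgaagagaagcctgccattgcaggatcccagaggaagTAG
The RGN probe is shown whole, and the CRYAB probe up to the first stop codon of its first reading frame, in capitals, after 42 bases. Both genes are among the 3 lowest of the group.

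Of 10 listed markers of skeletal muscle, 1 could be named, MYOD1, which was lower at -1.22 ± 0.23, and of 8 of cartilage and bone, 1 could be named, SOX9, which was lower at -1.95 ± 0.37. Of 8 neural markers, MAP2 alone could be named, and was lower at -1.82 ± 0.15. Of 5 tendon markers, FMOD alone could be named, and was lower at -3.62 ± 0.22. No listed marker of endothelium, epithelium, smooth muscle and pericyte, or blood and macrophage could be named. Of 11 fibroblast markers, 5 could be named and all 5 were lower, with a mean of -4.66 ± 0.22 for DCN and of -2.09 ± 0.44 for COL3A1 and with the 3 probes of FN1 between -2.64 and -1.32. Every marker named here came from the study's table of changed genes. RefSeq accessions named only 49 probes beyond that table, so an unchanged marker had little chance of being counted. Of all gene probes, 6.06% were called lower. These counts therefore carry the choice of that table and are no measure of cell type. The ratios hold no level of either cell type, so whether a marker was near background could not be seen, and the part of cell composition in the lower genes was not tested.

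The higher proteins of this group described here belong to organelles. TTC35, now called EMC2, a subunit of the complex that inserts proteins into the endoplasmic reticulum membrane, had 1.41, 1.98, 1.37 and 1.92, with a mean of 1.67 ± 0.33. CHCHD1, a protein of the mitochondrial ribosome, had 1.32, 1.61, 1.27 and 1.59, with a mean of 1.45 ± 0.17. AURKAIP1, which is found in the mitochondrial ribosome and binds Aurora A kinase, had 1.41, 1.22, 1.23 and 0.70, with a mean of 1.14 ± 0.31. On AURKAIP1, unlike on most higher genes, array 4 was the lowest.

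**Figure D4:**
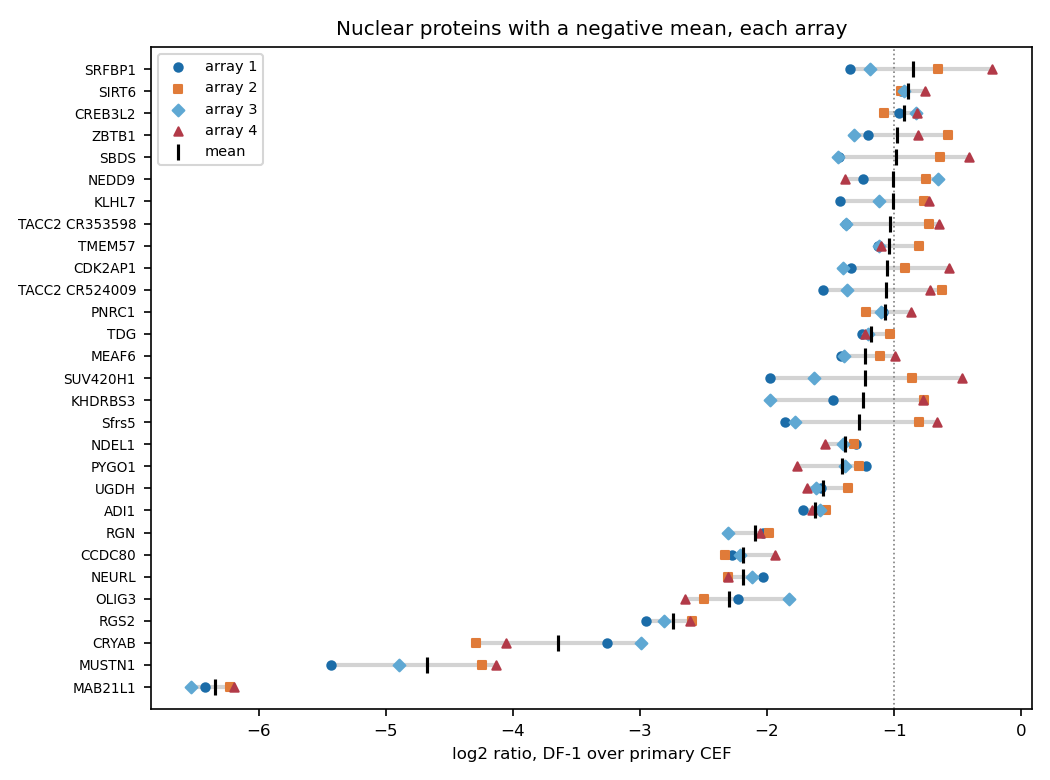
Log2 ratio on each of the 4 arrays for the 29 probes with a negative mean, sorted by the mean (black bar); the grey line joins the lowest and the highest array and the dotted line marks -1. MAB21L1, MUSTN1, CRYAB and RGS2 lie to the left of -2.5 on every array, and for SBDS, Sfrs5, SUV420H1 and both TACC2 probes arrays 2 and 4 lie to the right of -1 while arrays 1 and 3 lie to the left of it.

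The spread between arrays differed among the members, with a median SD of 0.255, against 0.254 in the study's whole table and 0.304 over all gene probes. The SD was under 0.2 in 35 of the 87 probes, or 40.2%, compared with 23.5% of all gene probes and 25.8% of all called gene probes, and over 0.5 in 12 probes, or 13.8%, compared with 14.5% of all gene probes and 21.0% of the called ones. The widest were the NAV2 probe of CR390809, the NAV2 probe of CR391224, the first PDCD11 probe, CWC22 and SUV420H1. Among the narrowest after NUP93 were ADI1, SIRT6, TDP1 and POLR2C. MAB21L1, with the largest difference, had an SD of 0.16, whereas MUSTN1 and CRYAB had 0.61 and 0.62.

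Around the 2 fold threshold, the members just inside on the lower side were NEDD9 and KLHL7, both at -1.01, and those just outside were SBDS and ZBTB1, both at -0.98. On the higher side the nearest were EFTUD2 and AURKAIP1, both at 1.14, and no member lay just outside. The study's whole table had the same trait. All of its 404 probes with a positive mean were called higher, and 400 of its 498 with a negative mean were called lower. With the arrays centered, 13 calls changed. The higher calls of EFTUD2, AURKAIP1, ZNF507, ANP32E, TSEN15, POLR2C, ZWILCH and TDP1 were lost, with shifted means from 0.93 to 0.99. The 5 genes that did not pass as deposited, SBDS, ZBTB1, CREB3L2, SIRT6 and SRFBP1, became lower, with shifted means from -1.19 to -1.07.

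Set beside the most similar genes of the table, the left-out genes had 27 of 33 probes higher and 6 lower, with a median of 1.45. They are those of replication, repair and the cell cycle together with a few further proteins. The 80 probes of nuclear transcription regulators had 33 higher and 37 lower, with a median of -0.97, and the whole table of 902 probes had 404 higher and 400 lower, with a median of -0.89. The median of the 87 member probes was 1.30. All of these were chosen on the same arrays, so the differences between them are given without a test.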

How the data were processed

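RNA of primary CEF (Cy3) and DF-1 cells (Cy5) was hybridized together on 4 Agilent chicken arrays. Per the study's methods, the authors corrected the signals of both dyes for background and normalized them by loess. They deposited a log2 ratio per probe and array, and a second table with the same ratio on a linear scale, whose columns for the mean and SD over arrays were not used. The direction of the ratio is not stated in the file headers. It was read as Cy5 over Cy3, because under this sign the genes that the study lists as up in DF-1 are positive. Intensities were not used here, so signal over background is unknown, and the number of arrays limits the precision.

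Members were taken from the study's table by its location and type columns, and symbols were joined to probes by accession. Of 120 entries of the class, 33 were left out. Further genes were named from a RefSeq gene table (assembly GRCg7b), which held 76 of the 83 member symbols and 4 more as synonyms. The mean of each of the 42034 gene probes was tested against 0 with limma 3.58.1 in R 4.3.3, tested on simulated data first. A call needed a change over 2 fold and a p, unadjusted, under 0.05, as in the study's methods. No centring between arrays was applied.

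The members, gene lists and roles were chosen with earlier results of these data known. Every member is named except 1, which is not reported here, and values of each array are given for the highest and lowest 2 of each role, for means over 2 or under -2, for genes with several probes and for those nearest to the threshold. A few others whose arrays differed were added after their values were seen. Alternatives covered the adjustment of p, the level and spread of the arrays, the variance estimate, the fold threshold, the table and each array in turn.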

Additional observations from a re-analysis of the deposited data

Results flagged for a closer look

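On 7 of the 87 probes 1 array lay far from the other 3 by Dixon's criterion for 4 values, which chance meets in about 1 in 20 groups, and 4 different arrays were involved. On array 4, TDP1 had a log2 ratio of 1.35 against 1.14 to 1.16 on the others, and SIRT6 had -0.76 against -0.95 to -0.92. On array 2, ANAPC5 had 1.71 against 1.38 to 1.43, POLR2C had 1.34 against 1.14 to 1.16, and TMEM57 had -0.81 against -1.12 to -1.11. SNRPA1 stood apart on array 3, with 1.56 against 1.77 to 1.78. DHX33 stood apart on array 1, with 1.18 against 1.41 to 1.44. Apart from TMEM57, which was short of 2 fold on array 2 alone, none of these arrays changed the side of the 2 fold threshold on which the gene lay.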

How the results depend on the processing

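The main counts were 58 higher and 24 lower among the members and 2571 and 2548 among all gene probes. With a 3 fold threshold they were 21 and 9 among the members and 878 and 1470 among all gene probes. With no fold threshold, 12421 gene probes were higher and 5631 were lower. A test against a 2 fold change (limma's treat) called 43 members higher and 12 lower, and 1491 gene probes higher and 1820 lower. Leaving out 1 array at a time gave 56 to 58 higher and 18 to 26 lower members, and 2253 to 2997 higher and 2330 to 2881 lower gene probes. Lower calls of both TACC2 probes, CDK2AP1 and KLHL7 were lost without array 1 or 3, SUV420H1 without array 1 and NEDD9 without array 1 or 4. SBDS and ZBTB1 became lower without array 2 or 4 and SRFBP1 without array 4. Adjusted p-values, robust variances and the linear table left 58 and 24 members called. With arrays at a median of 0, every member mean fell by the same 0.21, which was more than the SD in 39 of 87 probes. That number thus reflects which probes had a small SD. After scaling to a common spread as well, the members' counts were 51 and 29. No separate paired analysis was run, because each array holds both cell types and the main test of their ratio against 0 already uses this pairing. A count of promoter motifs was not run, since promoter sequence was not used here.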
